A study of Mus musculus with 20 samples.

Results

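Genes of the NRF2 pathway and of the cell's antioxidant enzymes were examined in the hypothalamus of diet-induced obese mice given celastrol or its vehicle. The set was a list of 38 gene symbols, and a gene was taken from the deposited arrays where at least 1 probe set carried its symbol alone. By that rule 35 genes were found among 18704 genes with such a probe set, and the brightest probe set over all arrays stood for each gene. Prdx5, Prdx6 and G6pdx had no probe set that met the rule and were not analysed here. All 35 genes found lay above the intensity filter (a log2 value of 7.04, the 25th percentile) and were tested beside 14129 genes in all.

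The series compared 20 hypothalamus samples from male C57BL/6J mice, 1 array per sample, which the labels call biological replicates. Every mouse had eaten a high-fat diet (45% fat) for 16 weeks from an age of 4 weeks, so controls and treated mice alike were obese and no lean group was used. DMSO, the solvent and vehicle control, was injected into the peritoneum at 25 µl per day, and 3 DMSO arrays were made at each of 6 h, 1 day and 4 days. Celastrol was injected by the same route and measured on 4, 4 and 3 arrays in the same order, and the labels set the dose of 250 µg/kg beside 6 h, with the dose at the later times not given in the sources used here. Values are log2 intensities, and every difference is celastrol minus DMSO on the log2 scale unless 2 times are named, with its standard error (SE).

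NRF2, encoded by Nfe2l2, is a transcription factor that KEAP1 holds in the cytoplasm and marks for degradation. Electrophiles and oxidants modify cysteines of KEAP1, NRF2 then accumulates, enters the nucleus and binds antioxidant response elements together with small MAF proteins. Its targets make glutathione, recycle thioredoxin, supply NADPH and detoxify quinones and heme. Celastrol is an electrophilic quinone methide triterpenoid that reacts with thiols. In the brain the glutathione and metallothionein systems are known to be strong in astrocytes. Metallothioneins are small cysteine-rich proteins that bind zinc and copper, and their genes are known to respond to metals and to glucocorticoids.

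The promoters of 3 metallothionein genes and 2 classical NRF2 targets are given first. The metallothionein genes stand next to each other in the genome. Gclm and Txnrd1 were picked because they carry the antioxidant response element core near a start site. Sequences are the 250 bases before a RefSeq start in build GRCm38.p6, 5′ to 3′ on the gene's strand, with matches to the patterns below in capitals. They lie at chr8:94178839-94179088 (Mt1), chr8:94172368-94172617 (Mt2), chr8:94152357-94152606 (Mt3), chr3:122245307-122245556 (Gclm) and chr10:82858956-82859205 (1 of several starts of Txnrd1), all on the + strand.
Mt1: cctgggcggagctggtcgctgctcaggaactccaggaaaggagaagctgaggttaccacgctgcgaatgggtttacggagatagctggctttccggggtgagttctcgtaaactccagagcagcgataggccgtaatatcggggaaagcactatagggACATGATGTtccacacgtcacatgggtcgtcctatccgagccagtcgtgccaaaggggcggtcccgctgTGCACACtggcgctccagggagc
Mt2: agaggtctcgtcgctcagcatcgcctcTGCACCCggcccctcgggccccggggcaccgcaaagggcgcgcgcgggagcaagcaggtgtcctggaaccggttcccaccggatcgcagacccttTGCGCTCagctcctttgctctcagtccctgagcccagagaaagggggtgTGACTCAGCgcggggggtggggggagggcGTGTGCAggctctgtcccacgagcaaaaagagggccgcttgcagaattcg
Mt3: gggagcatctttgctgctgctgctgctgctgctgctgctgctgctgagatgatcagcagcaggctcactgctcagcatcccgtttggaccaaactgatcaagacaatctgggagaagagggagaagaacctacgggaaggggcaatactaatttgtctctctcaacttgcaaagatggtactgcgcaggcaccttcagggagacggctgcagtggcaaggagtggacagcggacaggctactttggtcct
Gclm: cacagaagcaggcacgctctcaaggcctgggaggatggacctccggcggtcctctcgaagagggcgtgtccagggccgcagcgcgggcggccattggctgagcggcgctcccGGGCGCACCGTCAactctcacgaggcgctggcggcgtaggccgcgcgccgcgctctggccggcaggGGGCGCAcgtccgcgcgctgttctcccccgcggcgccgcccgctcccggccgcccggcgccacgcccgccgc
Txnrd1: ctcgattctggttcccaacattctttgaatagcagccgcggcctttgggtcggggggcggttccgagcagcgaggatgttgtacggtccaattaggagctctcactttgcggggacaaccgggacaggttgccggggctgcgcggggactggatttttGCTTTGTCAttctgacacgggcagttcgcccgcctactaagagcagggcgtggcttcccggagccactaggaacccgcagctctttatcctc

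Searched on both strands were the antioxidant response element core TGACNNNGC, the metal response element core TGCACNC or TGCGCNC, a glucocorticoid response element pattern ACANNNTGT and a heat shock element pattern GAANNTTC. In Mt1 the capitals mark a glucocorticoid pattern at -92 to -84 and a metal core at -23 to -17, counted from the start site. In Mt2 they mark metal cores at -223, -128 and -50 and an antioxidant core at -79 to -71. In Gclm an antioxidant core at -134 to -126 overlaps a metal core at -138 to -132, and another metal core stands at -72. In Txnrd1 they mark an antioxidant core at -92 to -84, and in the window of Mt3 none of the patterns was found. Of the 35 genes, 30 had RefSeq windows, 38 in all, and 7 of the 38 (18.4%) held the antioxidant core, those of Gclm, Gstm5, Mt2, Nfe2l2, Prdx1, Sod1 and Txnrd1 (1 of its 3), against 10.2% of 32851 windows of the same length. The metal core was found in 10 of the 38 (26.3%) against 21.4% of all windows, the glucocorticoid pattern in 1 (2.63%) against 5.84% and the heat shock pattern in 2 (5.26%) against 6.69%. Among the classical targets, Nqo1, Srxn1 and Slc7a11 had no antioxidant core in their windows. Hmox1 and Gclc had no RefSeq window. A match describes letters in these windows alone, which cover neither other starts nor distant elements.

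Celastrol moved none of the 35 genes past the threshold at any time. Limma called 0 of 35 at 6 h (0% of all genes tested), 0 of 35 at 1 day (0.425% of all genes), 0 of 35 at 4 days (0.0637%) and 0 of 35 in the average over the times (0.573%). At an unadjusted p under 0.05 there were 0, 3, 2 and 5 of the 35. That is 0% at 6 h against 7.55% of all genes, 8.57% at 1 day against 8.19% and 5.71% at 4 days against 6.53%. In the average it is 14.3% against 8.78%. The lowest adjusted p among the 35 was 0.722 at 6 h, 0.385 at 1 day, 0.399 at 4 days and 0.0659 in the average, the last 3 all for Mt1. At 6 h 14 genes were higher and 21 lower with celastrol, with a median of -0.01 against -0.01 for all genes. At 1 day 26 were higher and 9 lower (median 0.04 against 0.01 for all genes), and at 4 days 22 were higher and 13 lower (median 0.02 against 0.01). The 4 day median was below 0 without celastrol replicate 1 (-0.0044) or without DMSO replicate 2 (-0.0018) of that time. The 1 day median lay between 0.016 and 0.071 over the alternatives, the highest without celastrol replicate 4.

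The 95% intervals bounded the size of a change for each gene on its own. They were not adjusted for the number of genes, so they give no joint bound on all 35. The whole 95% confidence interval lay within 1.25-fold in either direction for 34 of 35 genes at 6 h, 33 at 1 day and 30 at 4 days, and within 1.5-fold for all 35 at each time. The highest upper bound was 1.21-fold at 6 h (Pgd), 1.31-fold at 1 day (Mt1) and 1.40-fold at 4 days (Mt1). On the lower side the farthest bound was a 1.26-fold decrease at 6 h (Prdx4) and a 1.33-fold decrease at 4 days (Slc7a11). Celastrol and DMSO arrays did not overlap for 1 of the 35 genes at 6 h (2.86%, against 6.35% of all genes), 2 at 1 day (5.71% against 7.81%) and 5 at 4 days (14.3% against 14.4%), shares at or below the background.

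**Figure D1:**
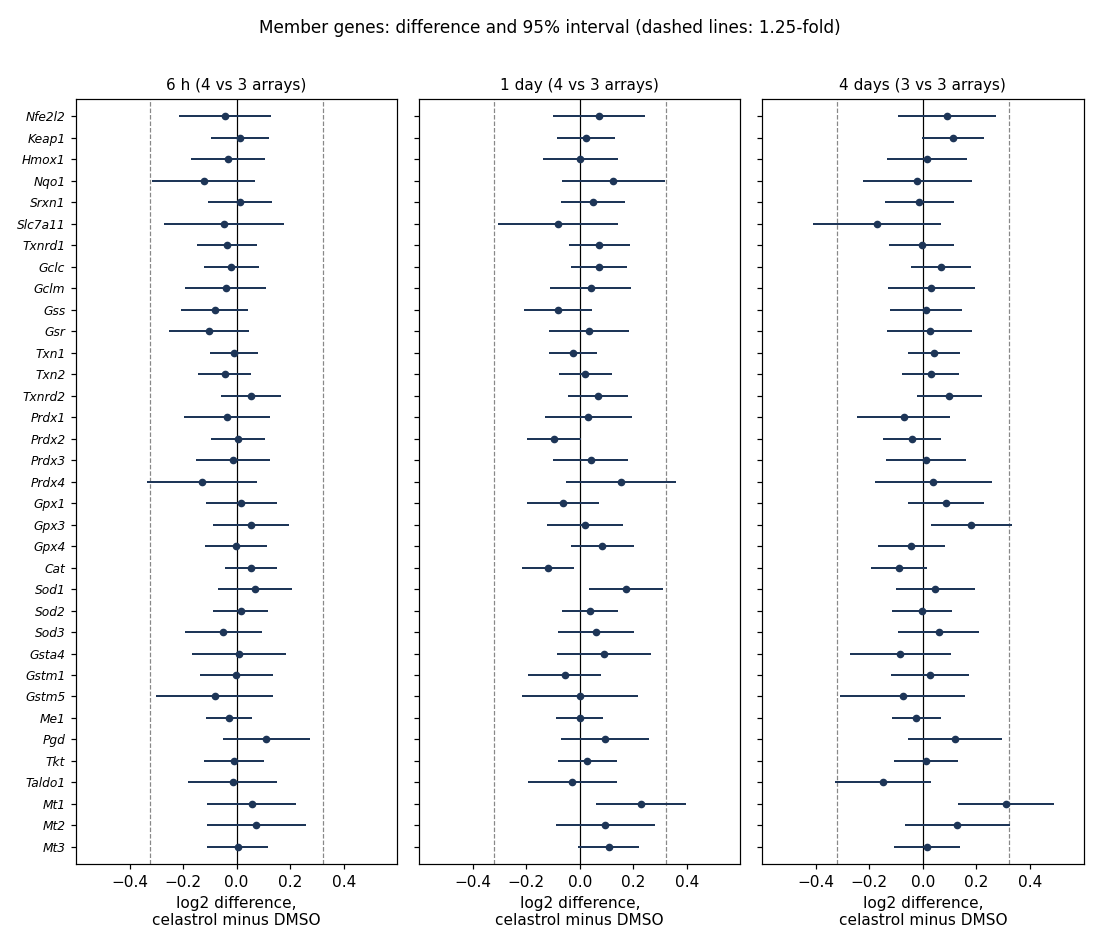
Log2 difference, celastrol minus DMSO, for each of the 35 genes at 6 h, 1 day and 4 days (points), with its 95% confidence interval from limma (lines) and dashed lines at 1.25-fold in both directions. Most intervals cross 0 and stay between the dashed lines, and Mt1 at 4 days reaches farthest, with an upper bound of 1.40-fold.

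DMSO replicate 3 at 6 h and DMSO replicate 3 at 1 day lay far from their groups: after group means were removed, they scored 11.4 and 9.61 on the first principal component, and the other 18 arrays between -6.13 and 5.32. Without both, limma again called 0 of the 35 at 6 h, at 1 day and in the average, with 0, 4 and 5 at an unadjusted p under 0.05, and of all 14129 genes it called 0, 40 and 39. The share of all genes under that unadjusted p is not given for this setting, so the counts of 0, 4 and 5 have no background here. The balance of directions at 6 h turned, to 26 higher and 9 lower with a median of 0.03 against -0.01 for all genes. At 1 day it became 27 higher and 8 lower, with a median of 0.06 against 0.02 for all genes. Thalamus markers, of which 6 of 6 were lower with celastrol at 6 h (median -0.31, 0 called), had a mean level of 9.82 to 10.37 on DMSO arrays at 6 h against 9.65 to 9.88 on celastrol arrays and 9.64 to 9.78 on DMSO arrays at 1 day, and the part of this difference between arrays in the 6 h values was not tested. Of 15 hypothalamus markers 14 were measured and lay above the filter. Over all listed hypothalamus markers with a probe set, array means were 10.30 to 10.45 on DMSO and 10.28 to 10.43 on celastrol arrays at 6 h. In bulk tissue fewer cells of a type and less RNA per cell cannot be told apart.

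Neither regulator of the pathway passed at any time. Nfe2l2, the gene for NRF2, read 9.58, 9.85 and 9.92 on DMSO and 9.66, 9.81, 9.86 and 9.63 on celastrol arrays at 6 h, a difference of -0.04 ± 0.08 (SE; adjusted p = 0.907). It read 9.69, 9.76 and 9.82 against 9.78, 9.98, 9.84 and 9.72 at 1 day and 9.53, 9.77 and 9.66 against 9.72, 9.69 and 9.82 at 4 days. The groups overlapped at each time, and the differences at 1 day and 4 days were 0.07 ± 0.08 and 0.09 ± 0.09. Keap1, the adaptor that targets NRF2 for degradation, read 9.43, 9.39 and 9.44 on DMSO and 9.50, 9.55 and 9.54 on celastrol arrays at 4 days. Those groups did not overlap, and the difference of 0.11 ± 0.06 did not pass (adjusted p = 0.774). At 6 h Keap1 read 9.38, 9.48 and 9.42 against 9.41, 9.47, 9.40 and 9.48, and at 1 day 9.42, 9.40 and 9.51 against 9.36, 9.44, 9.63 and 9.45. Its differences there were 0.01 ± 0.05 and 0.02 ± 0.05, with overlapping groups.

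Among the classical NRF2 targets, Hmox1 (heme oxygenase 1, which degrades heme) differed by no more than 0.03 in size. It read 8.20, 8.22 and 8.30 on DMSO and 8.11, 8.27, 8.25 and 8.22 on celastrol arrays at 6 h. The corresponding values were 8.08, 8.31 and 8.20 against 8.23, 8.26, 8.28 and 8.03 at 1 day, and 8.14, 8.10 and 8.30 against 8.26, 8.15 and 8.18 at 4 days. Groups overlapped throughout, and the differences were -0.03 ± 0.07, 0.00 ± 0.07 and 0.02 ± 0.07. The 95% interval at 6 h reached from a 1.13-fold decrease to a 1.08-fold increase, and that at 1 day from a 1.10-fold decrease to a 1.10-fold increase.

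Nqo1, the quinone reductase often used as an NRF2 readout, had a mean of 7.17 over all arrays, just above the filter. At 6 h it read 7.22, 7.05 and 7.37 on DMSO and 7.06, 7.10, 7.03 and 7.18 on celastrol arrays (-0.12 ± 0.09, adjusted p = 0.743). At 1 day it read 7.12, 7.13 and 7.33 against 7.44, 7.36, 7.33 and 7.14 (0.13 ± 0.09, adjusted p = 0.761), and at 4 days 7.05, 6.97 and 7.28 against 7.23, 6.91 and 7.11 (-0.02 ± 0.10, adjusted p = 0.989). All 3 pairs of groups overlapped. Without both arrays that stood apart the differences were -0.05 at 6 h and 0.19 at 1 day, the latter with an adjusted p of 0.350.

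Srxn1, which repairs overoxidised peroxiredoxins, read 10.37, 10.58 and 10.53 on DMSO and 10.58, 10.56, 10.49 and 10.39 on celastrol arrays at 6 h. Values were 10.32, 10.36 and 10.31 against 10.35, 10.42, 10.46 and 10.29 at 1 day, and 10.32, 10.34 and 10.31 against 10.34, 10.22 and 10.37 at 4 days. The groups overlapped at each time, with differences of 0.01 ± 0.06, 0.05 ± 0.06 and -0.01 ± 0.06. Txnrd1, the cytosolic thioredoxin reductase, read 9.32, 9.44 and 9.52 against 9.43, 9.42, 9.36 and 9.35 at 6 h, 9.46, 9.40 and 9.46 against 9.43, 9.54, 9.56 and 9.52 at 1 day and 9.34, 9.45 and 9.48 against 9.53, 9.39 and 9.34 at 4 days. Its differences were -0.04 ± 0.05, 0.07 ± 0.05 and 0.00 ± 0.06, and the groups overlapped each time.

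Slc7a11, the cystine importer that feeds glutathione synthesis, varied most between arrays. DMSO arrays at 6 h read 10.90, 10.47 and 11.001, and the 10.47 was 0.430 below the gene's mean, the lowest value of any of the 35 genes on any array relative to its own mean. Celastrol arrays at 6 h read 10.71, 10.62, 10.77 and 10.87. At 1 day the values were 11.08, 10.99 and 10.96 on DMSO and 10.93, 11.11, 10.87 and 10.81 on celastrol arrays, and at 4 days 11.16, 10.94 and 11.13 against 11.10, 10.87 and 10.75. The mean was lower with celastrol at each time, with differences of -0.05 ± 0.11, -0.08 ± 0.11 and -0.17 ± 0.11, and none passed (adjusted p = 0.923, 0.892 and 0.877). At 6 h the sign turned without both arrays that stood apart, to 0.06.

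**Figure D2:**
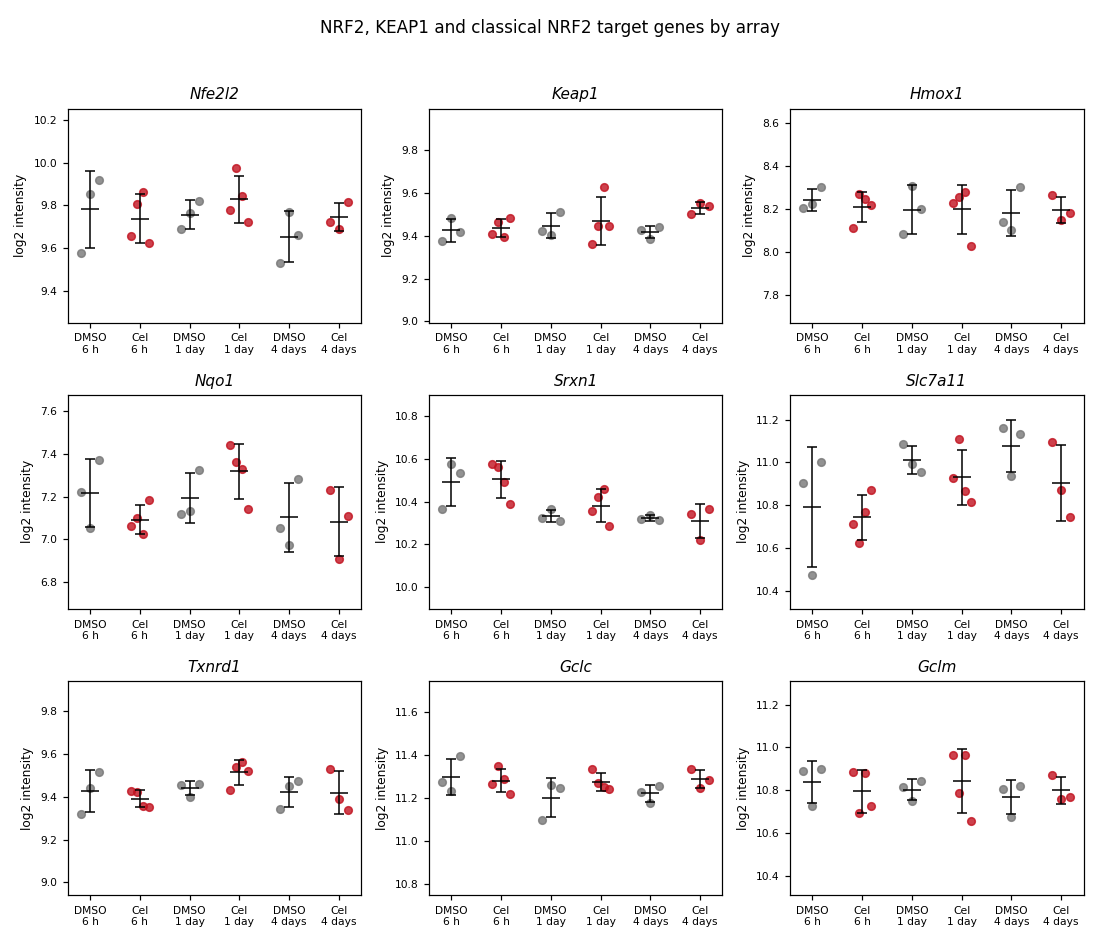
Log2 intensity of Nfe2l2, Keap1 and 7 classical NRF2 target and glutathione synthesis genes on each array, for DMSO (grey) and celastrol (red) at 6 h, 1 day and 4 days, with the group mean (long bar) and SD (short bars). Each panel has its own axis of the same length, and DMSO and celastrol arrays overlap in each panel at each time except for Keap1 at 4 days.

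Glutathione synthesis and recycling showed no called change. Gclc, the catalytic subunit of the rate-limiting glutamate-cysteine ligase, read 11.27, 11.23 and 11.39 against 11.27, 11.35, 11.29 and 11.22 at 6 h. At 1 day it read 11.10, 11.26 and 11.25 against 11.34, 11.27, 11.25 and 11.24, and at 4 days 11.23, 11.18 and 11.26 against 11.33, 11.25 and 11.28. Those groups overlapped and the differences were -0.02 ± 0.05, 0.07 ± 0.05 and 0.07 ± 0.05. Gclm, the modifier subunit, whose printed promoter holds the antioxidant core, read 10.89, 10.72 and 10.90 against 10.88, 10.69, 10.88 and 10.73 at 6 h. It read 10.81, 10.75 and 10.84 against 10.96, 10.79, 10.96 and 10.66 at 1 day, and 10.80, 10.68 and 10.82 against 10.87, 10.76 and 10.77 at 4 days. The Gclm differences were -0.04 ± 0.07, 0.04 ± 0.07 and 0.03 ± 0.08, again with overlap.

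Gsr (glutathione reductase) and Gss (glutathione synthetase) were with Pgd the genes with the smallest p at 6 h. Gsr read 10.03, 9.80 and 9.86 on DMSO and 9.75, 9.78, 9.92 and 9.74 on celastrol arrays (-0.10 ± 0.07, adjusted p = 0.722). Gss read 8.95, 8.73 and 8.89 against 8.71, 8.78, 8.88 and 8.74 (-0.08 ± 0.06, adjusted p = 0.743). Both pairs of groups overlapped, and at 1 day and 4 days the differences of these genes lay between -0.08 and 0.03.

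The thioredoxin and peroxiredoxin genes, which reduce disulfides and peroxides, also gave 0 called genes. Txn1 and Txn2, the cytosolic and mitochondrial thioredoxins, differed by between -0.04 and 0.04 at all 3 times. Txnrd2, the mitochondrial reductase, differed by 0.06 ± 0.05, 0.07 ± 0.05 and 0.10 ± 0.06, and by 0.07 ± 0.03 in the average (adjusted p = 0.492). Among the 4 peroxiredoxins the differences lay between -0.13 (Prdx4 at 6 h) and 0.15 (Prdx4 at 1 day). Prdx4, the peroxiredoxin of the endoplasmic reticulum, read 7.77, 7.69 and 7.67 against 7.59, 7.65, 7.46 and 7.63 at 6 h, groups that did not overlap with an adjusted p of 0.748. At 1 day its celastrol arrays were spread from 7.44 to 7.96. Prdx1 and Prdx2 each had a dimmer probe set. That of Prdx1 differed by 0.01, 0.10 and -0.08 at 6 h, 1 day and 4 days. The one used differed by -0.04, 0.03 and -0.07. The dimmer probe set of Prdx2 differed by 0.08 at 4 days where the one used differed by -0.04. Signal from near-identical copies cannot be told apart here.

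Catalase, the glutathione peroxidases and the superoxide dismutases held 3 of the genes with the smallest p. Cat, which splits hydrogen peroxide in peroxisomes, read 11.49, 11.60 and 11.57 on DMSO and 11.47, 11.44, 11.40 and 11.42 on celastrol arrays at 1 day. Every celastrol array was below every DMSO array, and the difference of -0.12 ± 0.05 did not pass (adjusted p = 0.462). At 6 h the difference was 0.05 ± 0.05 and at 4 days -0.09 ± 0.05. The effect at 1 day minus that at 6 h was -0.17 ± 0.07 (adjusted p = 0.427), and that at 4 days minus that at 6 h was -0.14 ± 0.07 (adjusted p = 0.646).

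Sod1, the cytosolic copper-zinc superoxide dismutase, read 12.69, 12.70 and 12.80 on DMSO and 12.85, 12.92, 13.07 and 12.76 on celastrol arrays at 1 day. The groups overlapped, and the difference of 0.17 ± 0.07 did not pass (adjusted p = 0.450). It was 0.07 ± 0.07 at 6 h and 0.05 ± 0.07 at 4 days. Sod2 (mitochondrial) and Sod3 (extracellular) differed by between -0.05 and 0.06. Gpx3, the secreted glutathione peroxidase, read 11.68, 11.87 and 11.84 on DMSO and 11.98, 12.01 and 11.95 on celastrol arrays at 4 days, without overlap (0.18 ± 0.07, adjusted p = 0.673). At 6 h and 1 day it differed by 0.05 ± 0.07 and 0.02 ± 0.07. Gpx1 and Gpx4, the cytosolic and the phospholipid peroxidases, differed by between -0.06 and 0.09. Gpx4 also had a dimmer probe set, which gave -0.01, 0.07 and -0.04, and signal from near-identical copies cannot be told apart for it either.

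The glutathione transferases Gsta4, Gstm1 and Gstm5, which conjugate electrophiles to glutathione, differed by between -0.08 and 0.09. Gstm1 and Gstm5 are paralogs 5 protein-coding genes apart, and their probes may share signal. Of the NADPH-supplying enzymes, Pgd (6-phosphogluconate dehydrogenase) read 10.27, 9.86 and 10.03 on DMSO and 10.16, 10.02, 10.34 and 10.15 on celastrol arrays at 6 h (0.11 ± 0.08, adjusted p = 0.729). At 4 days it read 9.99, 10.06 and 10.04 against 10.22, 10.14 and 10.10, without overlap (0.12 ± 0.08, adjusted p = 0.886). Pgd was higher on average at each time, by 0.11 ± 0.05 over the 3 (adjusted p = 0.494). Taldo1 (transaldolase) was lower at 4 days, 9.05, 9.06 and 9.05 against 9.15, 9.17 and 9.27 on DMSO arrays, also without overlap (-0.15 ± 0.09, adjusted p = 0.829). Tkt and Me1 differed by between -0.03 and 0.03. A dimmer probe set of Me1 gave -0.05 at 6 h, 0.02 at 1 day and -0.02 at 4 days.

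Mt1 gave the highest difference of the 35 genes at 1 day and at 4 days. Mt1 read 12.46, 12.78 and 12.61 on DMSO and 12.66, 12.80, 12.65 and 12.59 on celastrol arrays at 6 h, and the groups overlapped (0.06 ± 0.08). At 1 day it read 12.50, 12.64 and 12.57 against 12.87, 12.82, 12.79 and 12.71, and every celastrol array was above every DMSO array. The means were 12.57 ± 0.07 (SD, n = 3) and 12.80 ± 0.07 (SD, n = 4), a difference of 0.23 ± 0.08 or 1.17-fold (limma, adjusted p = 0.385). At 4 days it read 12.40, 12.55 and 12.53 against 12.63, 12.79 and 12.99, again without overlap. Means of 12.49 ± 0.08 and 12.80 ± 0.18 (SD, n = 3 each) gave 0.31 ± 0.09 or 1.24-fold (adjusted p = 0.399).

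Averaged over the times Mt1 was higher by 0.20 ± 0.05 (adjusted p = 0.0659), just outside the threshold. Over 30 alternative settings that average ranged from 0.17 to 0.23, with adjusted p from 0.0136 to 0.178, and it passed in 5. Leaving out DMSO replicate 2 at 6 h gave 0.0191 and leaving out celastrol replicate 1 at 4 days gave 0.0136, and without celastrol replicate 3 at 4 days the difference was 0.17. Without both arrays that stood apart the average was 0.20 (adjusted p = 0.144) and the 1 day difference 0.23 (adjusted p = 0.258). The effect at 4 days minus that at 6 h was 0.26 ± 0.12 (adjusted p = 0.646).

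Mt2, the other ubiquitous metallothionein, differed less than Mt1 at 1 day and 4 days but not at 6 h (0.07 against 0.06). It read 13.70, 14.16 and 14.06 against 14.07, 14.18, 13.92 and 14.01 at 6 h, 13.98, 14.003 and 14.04 against 14.18, 14.12, 14.08 and 14.03 at 1 day, and 13.80, 13.92 and 13.92 against 13.87, 13.96 and 14.19 at 4 days. Groups overlapped each time, with differences of 0.07 ± 0.09, 0.10 ± 0.09 and 0.13 ± 0.09 (adjusted p = 0.841, 0.827 and 0.893). Mt3, the brain-enriched metallothionein, read 11.79, 11.80 and 11.78 against 11.76, 11.85, 11.84 and 11.75 at 6 h, and 11.88, 11.86 and 11.90 against 11.94, 11.87 and 11.88 at 4 days. At 1 day it read 11.81, 11.76 and 11.80 against 11.84, 11.84, 12.09 and 11.81, where 1 celastrol array was well above the other 3. Its differences were 0.00 ± 0.05, 0.11 ± 0.05 and 0.02 ± 0.06 (adjusted p = 0.989, 0.621 and 0.988). None of the 3 passed at any time.

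**Figure D3:**
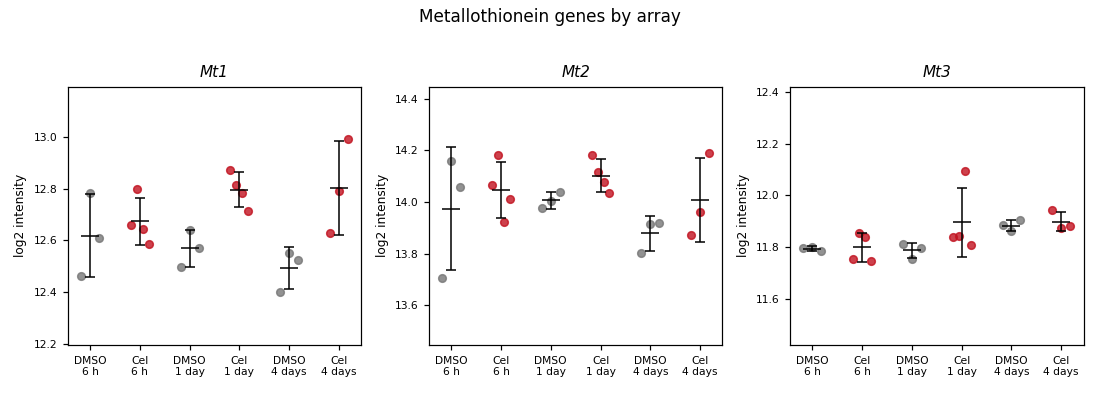
Log2 intensity of Mt1, Mt2 and Mt3 on each array, for DMSO (grey) and celastrol (red) at 6 h, 1 day and 4 days, with the group mean (long bar) and SD (short bars). Mt1 celastrol arrays lie above all DMSO arrays at 1 day (12.71 to 12.87 against 12.50 to 12.64) and at 4 days (12.63 to 12.99 against 12.40 to 12.55), while those of Mt2 overlap.

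Genes that glucocorticoids induce were higher on the same arrays. Of 18 tested genes of that list, 18 were higher with celastrol at 1 day (10 called, median 0.65), 18 at 4 days (1 called, median 0.36) and 13 at 6 h (0 called, median 0.05). Mean levels here are over all listed genes with a probe set, above the filter or not. For this list they were 9.36 to 9.49 on DMSO and 9.98 to 10.16 on celastrol arrays at 1 day. At 4 days they were 9.31 to 9.54 against 9.64 to 10.34. Fkbp5, a glucocorticoid-induced chaperone, read 8.93, 9.18 and 9.99 on the celastrol arrays at 4 days, and the array highest in Fkbp5 was also the one highest in Mt1 and Mt2. That match failed on celastrol arrays at the other times. At 1 day replicate 3 was highest in Fkbp5 (9.77) and replicate 1 in Mt1 (12.87) and Mt2 (14.18). At 6 h replicate 3 was highest in Fkbp5 (9.39) and lowest in Mt2 (13.92). On DMSO arrays it held for both genes at 6 h, for Mt1 alone at 4 days and for Mt2 alone at 1 day. Sgk1, a glucocorticoid-induced kinase, was higher with celastrol than with DMSO by 1.16 ± 0.12 at 1 day (adjusted p = 0.000236) and by 0.78 ± 0.13 at 4 days (adjusted p = 0.0413). Between 6 h and 1 day Sgk1 fell by 0.94 ± 0.13 on DMSO arrays (adjusted p = 0.00779), while the difference on celastrol arrays was -0.0030 ± 0.12 (adjusted p = 0.994). Of the 18 list genes tested, 17 were lower on DMSO arrays at 1 day than at 6 h (median -0.47, 1 called). The part of this list in the Mt1 values was not tested. Astrocyte markers, of which 3 of 8 were higher at 1 day and 5 of 8 at 4 days with 0 called, had mean levels of 11.54 to 11.61 on DMSO and 11.52 to 11.58 on celastrol arrays at 1 day. Of 6 oligodendrocyte markers tested 5 were lower with celastrol at 1 day and 5 at 4 days with 0 called. The mean level of that list at 4 days was 11.16 to 11.37 on celastrol and 11.39 to 11.47 on DMSO arrays, without overlap. Of 6 endothelial markers 3 were higher and 3 lower at 1 day (median -0.03). Limma called 1 of them, Cldn5, a tight junction protein (-0.61 ± 0.10, adjusted p = 0.00857). At 4 days 5 of the 6 were lower, with 0 called (median -0.10). The 3 pituitary markers tested were all lower at both times, with medians of -0.51 and -0.19 and 0 called. The part of these markers in the metallothionein values was not tested.

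Of 101 further genes of NRF2 partners, glutathione, detoxification, NADPH, heme and metal handling, 89 were tested, and limma called 0 of them at 6 h, 1 day and 4 days and 1 (1.12%) in the average, beside 0%, 0.425%, 0.0637% and 0.573% of all genes. Higher with celastrol were 36, 46 and 49 of the 89, with medians of -0.01, 0.00 and 0.01. At an unadjusted p under 0.05 there were 4 (4.49%), 6 (6.74%) and 7 (7.87%) of them, beside 7.55%, 8.19% and 6.53% of all genes. In the average there were 11 (12.4%), beside 8.78% of all genes. The genes nearest the threshold that are not described next were Slc39a10, a zinc importer (-0.11 ± 0.04, adjusted p = 0.604), and Me2, a malic enzyme (-0.15 ± 0.05, adjusted p = 0.628), at 6 h, and Gstz1 (0.20 ± 0.06, adjusted p = 0.420) and the biliverdin reductase Blvra (-0.20 ± 0.07, adjusted p = 0.585) at 4 days.

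The gene called in the average was Nfe2l3, which encodes the related cap'n'collar factor NRF3. It was lower with celastrol than with DMSO by 0.16 on the log2 scale (SE 0.03, limma, adjusted p = 0.0368). At 1 day it read 8.55, 8.57 and 8.47 on DMSO and 8.33, 8.27, 8.35 and 8.28 on celastrol arrays, without overlap (-0.22 ± 0.06, adjusted p = 0.123). It read 8.31, 8.30 and 8.43 against 8.18, 8.25, 8.32 and 8.30 at 6 h and 8.46, 8.33 and 8.36 against 8.36, 8.19 and 8.10 at 4 days. Those groups overlapped. The call held in 13 of 29 alternatives, with adjusted p from 0.00456 to 0.103. It ended when any 1 of 13 arrays was left out, namely DMSO replicates 1 and 3 at 6 h (0.0554 and 0.0883), 1 and 2 at 1 day (0.0805 and 0.0907) and 1 and 3 at 4 days (0.103 and 0.0660), and celastrol replicates 1, 2 and 4 at 6 h (0.0687, 0.0605 and 0.0520), 2 and 4 at 1 day (0.0680 and 0.0633) and 2 and 3 at 4 days (0.0776 and 0.0965). It also ended without both arrays that stood apart (0.0697) and when dim genes were kept (0.0606).

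Txnip, the thioredoxin-binding inhibitor of the thioredoxin system, showed the largest difference of the antioxidant genes named here at 1 day without passing. It read 9.47, 9.29 and 9.25 on DMSO and 9.94, 10.01, 10.15 and 9.70 on celastrol arrays. The groups did not overlap, and the difference of 0.61 ± 0.15 had an adjusted p of 0.0993, which ranged from 0.0282 to 0.376 over 30 alternatives and passed in 6. Among these were the fits without DMSO replicate 1 at 6 h (0.0477), celastrol replicate 1 at 4 days (0.0331) and celastrol replicate 3 at 4 days (0.0455), which leave the 1 day difference as it is, and fits with array weights (0.0282) and with the 1 day arrays alone (0.0312). At 6 h it read 9.52, 10.17 and 9.93 against 9.99, 10.06, 10.02 and 9.93, and at 4 days 9.33, 9.65 and 9.63 against 9.50, 9.97 and 10.22. Every DMSO array at 1 day was below every DMSO array at 6 h. On celastrol arrays Txnip differed by -0.05 ± 0.14 between these times (limma, adjusted p = 0.882). In the average over the times Txnip was higher with celastrol by 0.37 ± 0.09 (limma, adjusted p = 0.0706). That average passed in 4 of 30 alternatives, with adjusted p from 0.00705 to 0.191.

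Between times within a treatment limma also called none of the 35 genes. Among the DMSO arrays limma called 0 of 35 at 1 day against 6 h (0.0991% of all genes), 0 at 4 days against 6 h (0.0283%) and 0 at 4 days against 1 day (0%). In the same order 2, 3 and 1 of the 35 had an unadjusted p under 0.05. These are 5.71%, 8.57% and 2.86%, against 12.5%, 10.6% and 7.37% of all genes. Srxn1 was lower at both later times than at 6 h, by differences of -0.16 ± 0.06 and -0.17 ± 0.06 (adjusted p = 0.285 and 0.335), and both comparisons share the 6 h arrays. Slc7a11 was higher at 4 days than at 6 h by 0.28 ± 0.11 (adjusted p = 0.391), and by 0.12 without DMSO replicate 2 at 6 h (adjusted p = 0.712). Prdx2 was higher at 1 day than at 6 h by 0.17 ± 0.05 (adjusted p = 0.170) and differed by -0.16 ± 0.05 between 4 days and 1 day (adjusted p = 0.503, and 0.0434 with array weights). Its other probe set gave 0.13 and -0.15.

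Among the celastrol arrays limma called 0 of 35 at 1 day against 6 h (0.134% of all genes), 0 at 4 days against 6 h (0.892%) and 0 at 4 days against 1 day (0.0425%). In the same order 5, 2 and 5 had an unadjusted p under 0.05. These are 14.3%, 5.71% and 14.3%, against 17.2%, 20.3% and 12.1% of all genes. Nqo1 was higher at 1 day than at 6 h by 0.23 ± 0.08 (adjusted p = 0.187) and differed by -0.24 ± 0.09 between 4 days and 1 day (adjusted p = 0.334). Srxn1 differed by -0.19 ± 0.06 between 4 days and 6 h (adjusted p = 0.0847), and passed with array weights (0.0455). The DMSO arrays showed -0.17 for Srxn1 over the same interval. For the effect at 1 day minus 6 h, 4 days minus 6 h and 4 days minus 1 day limma called 0 of 35 each, against 0.00708%, 0.0142% and 0.00708% of all genes. At an unadjusted p under 0.05 there were 1, 2 and 0. These are 2.86%, 5.71% and 0%, against 10.3%, 7.68% and 2.47% of all genes.

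**Figure D4:**
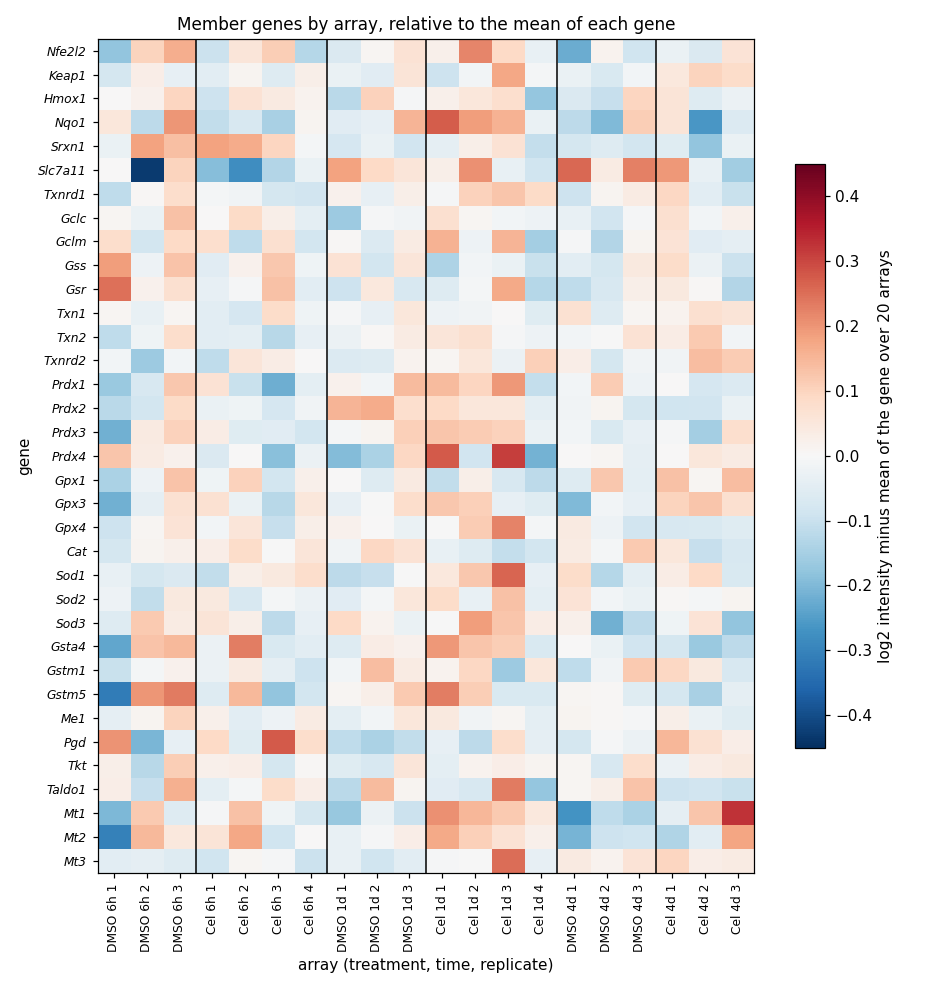
Log2 intensity of each of the 35 genes (rows) on each of the 20 arrays (columns), as the difference from the mean of that gene over the arrays; red is higher and blue lower, and vertical lines part the 6 groups. Values run from -0.430 (Slc7a11, DMSO replicate 2 at 6 h) to 0.325 (Mt1, celastrol replicate 3 at 4 days), and the Mt1 row is above its mean on all 4 celastrol arrays at 1 day and below it on all 3 DMSO arrays at 1 day.

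Averaged over the 35 genes, arrays of a group spread most in DMSO at 6 h and in celastrol at 1 day. The highest DMSO mean at 6 h was on replicate 3, which stood apart. The mean of the 35 per array lay between 10.55 and 10.68 on DMSO and between 10.58 and 10.62 on celastrol arrays at 6 h, between 10.57 and 10.63 and between 10.56 and 10.68 at 1 day, and between 10.57 and 10.60 and between 10.59 and 10.63 at 4 days. The ranges overlapped at each time.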

How the data were processed

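The deposited values are log2 intensities from 20 Affymetrix Mouse Gene arrays, with 23492 probe sets each. Per the submitters' processing notes they were made with RMA, which corrects background, quantile normalizes and summarises probe sets. Its version is not given in the sources used here. Array medians lay between 8.60 and 8.65. The number of arrays limits the precision.

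A gene was represented by its brightest probe set among 20228 with a single platform symbol. Probe sets with several symbols (1399) or none (1865) were left out, as were genes below the 25th percentile of mean intensity. The other 14129 genes entered 1 limma model (limma 3.58.1, R 4.3.3) with 1 coefficient per group (6 in all), eBayes moderation (14 residual and 4.92 prior degrees of freedom), Benjamini-Hochberg adjustment over all genes and a threshold of 0.05, two-sided. All adjusted p-values come from it. It compared celastrol with DMSO at each time and on average, differences between these, and times within a treatment. The labels call the arrays biological replicates and name no batch. The procedure was tested on simulated data.

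All 35 genes found were described, with array values for Nfe2l2, Keap1, 7 classical targets, 3 metallothioneins and the 3 smallest p per time. Further pathway genes were named where called or, per time, among the 2 smallest p. The genes and lists were chosen with earlier results of these data known. Alternatives, 30 in all, changed the filter, normalization, probe set rule, model or arrays used. Promoter windows are RefSeq's, matched by symbol, and all 35 genes matched RefSeq by Entrez ID. Python 3.11.15 was used.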

Additional observations from a re-analysis of the deposited data

Results flagged for a closer look

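In 5 of 90 gene and group pairs examined in groups of 4 arrays, 1 array lay far from the other 3, by Dixon's ratio at the 95% level. Chance alone flags about 1 pair in 20. Gsta4 on celastrol replicate 2 at 6 h read 10.71, above 10.41 to 10.45 on the other arrays of its group. Mt3 on celastrol replicate 3 at 1 day read 12.09, above 11.81 to 11.84. Park7 on celastrol replicate 1 at 6 h read 11.86, above 11.75 to 11.77. Prdx3 on celastrol replicate 4 at 1 day read 10.16, below 10.29 to 10.31. Txn2 on celastrol replicate 3 at 6 h read 11.07, below 11.15 to 11.16.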

How the results depend on the processing

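The count of 0 genes past the threshold among the 35 held at 6 h, 1 day and 4 days under all 30 alternatives. In the average over the times it became 1 (Mt1) with the arrays quantile normalized again, with genes below the median intensity left out and with the replicate block, and was 0 to 1 when single arrays were left out. For DMSO at 4 days against 1 day it became 1 (Prdx2) with array weights, and for celastrol at 4 days against 6 h it became 1 (Srxn1) with the replicate block and 1 with array weights. The cause was not tested. Replicate numbers are shared between groups. Deviations of same-numbered arrays correlated between -0.288 and 0.287 over 9 pairs, and those of differently numbered arrays between -0.240 and 0.378. In groups this small such deviations offset each other, so they cannot decide whether the numbers pair the arrays. Under that block Mt1 had an adjusted p of 0.0257 in the average, Srxn1 one of 0.0402 between celastrol at 4 days and 6 h, Txnip one of 0.0317 at 1 day and Nfe2l3 one of 0.0745 in the average. No gene past the threshold changed sign. Of 455 gene results, 218 changed sign in some alternative with neither value past the threshold.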

Other observations

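Park7, which encodes the redox-sensitive protein DJ-1, was the gene of the wider antioxidant list that passed between times within celastrol. It read 11.86, 11.77, 11.76 and 11.75 at 6 h and 12.13, 12.07, 12.23 and 11.98 at 1 day, without overlap, and rose by 0.32 ± 0.06 (limma, adjusted p = 0.0358). DMSO arrays read 11.77, 11.91 and 11.93 at 6 h and 12.05, 12.04 and 12.09 at 1 day, also without overlap, and celastrol against DMSO differed by 0.04 ± 0.06 at 1 day (adjusted p = 0.907). The call between times held in 20 of 30 alternatives, with adjusted p up to 0.104. It ended when any 1 of 9 arrays was left out, namely DMSO replicate 2 at 1 day (0.0503) or at 4 days (0.0509), celastrol replicates 2, 3 and 4 at 6 h (0.104, 0.0932 and 0.0871), 1, 2 and 3 at 1 day (0.103, 0.0688 and 0.0773) or 3 at 4 days (0.0522). It also ended with the arrays of the groups compared alone (0.0757).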
